A study of Sus scrofa with 12 samples.

Results

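Excitation-contraction coupling is the chain that turns an electrical signal at the muscle membrane into calcium release inside the cell. The 10 genes considered here encode its main parts, namely the sodium channel SCN4A, the calcium channel subunit CACNA1S and its partner STAC3, the release channel RYR1, the junction protein JPH2, the calcium pumps ATP2A1 and ATP2A2, and the store proteins CASQ1, CASQ2 and HRC. They were taken by gene name from a table of 31908 genes, and 8 of the 10 had a row. RYR1 and JPH2 had none under their names and were not analysed here.

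The RNA-seq data cover 12 libraries of pig muscle satellite cells, the stem cells that build and repair muscle fibres, in 4 groups of 3. These groups were CBP cells at 60h and control cells at 60h, both labelled as differentiating, and CBP cells at 0h and control cells at 0h, both labelled as proliferating. Controls carry the label WT in the sample titles and NC in the table. CBP was read as treatment with SGC-CBP30, a compound that blocks the bromodomains of CBP and its relative p300, both of them histone acetyltransferases, which the protocol gives at 5 uM/ml for 48h in proliferation and 60h in differentiation. That protocol text stands on all 12 samples and the arm names stand under a genotype tag, so a compound and a genetic change cannot be told apart from the labels. All samples are labelled with the line name C3H, while the organism and genome build are pig. No vehicle is named for the controls, and whether replicates were separate cultures is not stated, so p-values measure the spread between these libraries, which may be technical. The labels do not say if the CBP cells collected at 60h were already exposed while proliferating.

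In a mature muscle fibre, SCN4A carries the action potential into the transverse tubules, where CACNA1S senses the voltage and, with the adaptor STAC3, opens the release channel of the sarcoplasmic reticulum. Inside that store, the calsequestrins CASQ1 and CASQ2 and the histidine-rich protein HRC bind calcium. The pumps ATP2A1 and ATP2A2, also called SERCA1 and SERCA2, return calcium from the cytosol. ATP2A1 is the paralog typical of adult fast fibres, and CASQ1 is typical of adult skeletal muscle. ATP2A2 and CASQ2 are typical of heart and slow muscle and are present in developing muscle too. ATP2A2 also has a form found in most cell types.

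Each library held 16095335 to 19155240 reads, recovered from the steps of the deposited FPKM values (reads scaled to gene length and library total). Satellite cell and myoblast markers (PAX7, MYF5, MYOD1) were present in every group, with summed levels of 111 to 122 FPKM in CBP cells and 98.2 to 102 in controls at 60h, and 125 to 139 in CBP cells and 170 to 178 in controls at 0h. MYF5 made up most of each sum. At 60h PAX7 and MYF5 were higher in CBP cells than in controls and MYOD1 was lower, or 1 higher and 1 lower after median-of-ratios scaling. At 0h all 3 were lower. Beside these marker counts and those below, 18.1% of all genes tested were lower and 44.2% higher at 0h, and 27.0% and 44.7% at 60h. After median-of-ratios scaling these shares were 26.9% and 25.4% at 0h, and 35.7% and 33.5% at 60h. Markers of differentiating muscle summed to 1373 to 1483 FPKM in CBP cells and 2331 to 2518 in controls at 60h, and to 256 to 275 in CBP cells and 1451 to 1466 in controls at 0h. All 7 of them were lower in CBP cells than in controls at 0h, and 6 of 7 at 60h. Of 8 cardiomyocyte markers, 5 had a row, and each of these stayed below 1 FPKM in all 12 libraries. Smooth muscle markers were also lower in CBP cells, in 5 of 6 cases at 60h (summed 2625 to 2822 FPKM against 3758 to 3768 in controls) and in 6 of 6 at 0h (1419 to 1468 against 3563 to 3713). Of 5 fibroblast markers, CBP cells had 1 lower and 3 higher than controls at 60h, where 27.0% of all genes tested were lower and 44.7% higher. After median-of-ratios scaling 2 were lower and 1 higher at 60h. All 5 were lower at 0h. Their sums as deposited, most of them COL1A1, were 2374 to 2601 FPKM in CBP cells against 3600 to 3757 in controls at 60h. At 0h the sums were 486 to 499.6 FPKM against 1005 to 1042. The part of these marker shifts in the results below was not tested. In bulk RNA, fewer cells of a type and less RNA per cell cannot be told apart.

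All 8 measured genes reached 1 FPKM in at least 3 libraries and were tested with 11636 genes in all. In CBP cells, 7 of the 8 were lower than in controls at 60h and 1 was higher, where 71.6% of all genes tested were called, 27.0% as lower and 44.7% as higher. The count of lower genes at 60h was 6 without CBP replicate 1 or control replicate 2, where ATP2A2 lost its call. At 0h, 7 of the 8 were lower and 1 was higher as well, against 62.3% of all genes called, 18.1% lower and 44.2% higher. The 1 higher at 0h was ATP2A2, by 1.06-fold, and under TPM or median-of-ratios scaling none of the 8 was higher there. The median change of the 8 was -0.77 at 60h and -1.38 at 0h on the log2(FPKM + 1) scale, and over all genes tested it was 0.10 and 0.12. Both of these all-gene medians moved, by -0.11 at 60h and -0.12 at 0h, when libraries were scaled by median of ratios, and the shares of all genes were then 35.7% lower and 33.5% higher at 60h, and 26.9% lower and 25.4% higher at 0h. A gene was called at a Benjamini-Hochberg adjusted p under 0.05 from limma, and that is what rose, fell, higher and lower stand for in counts.

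**Figure D1:**
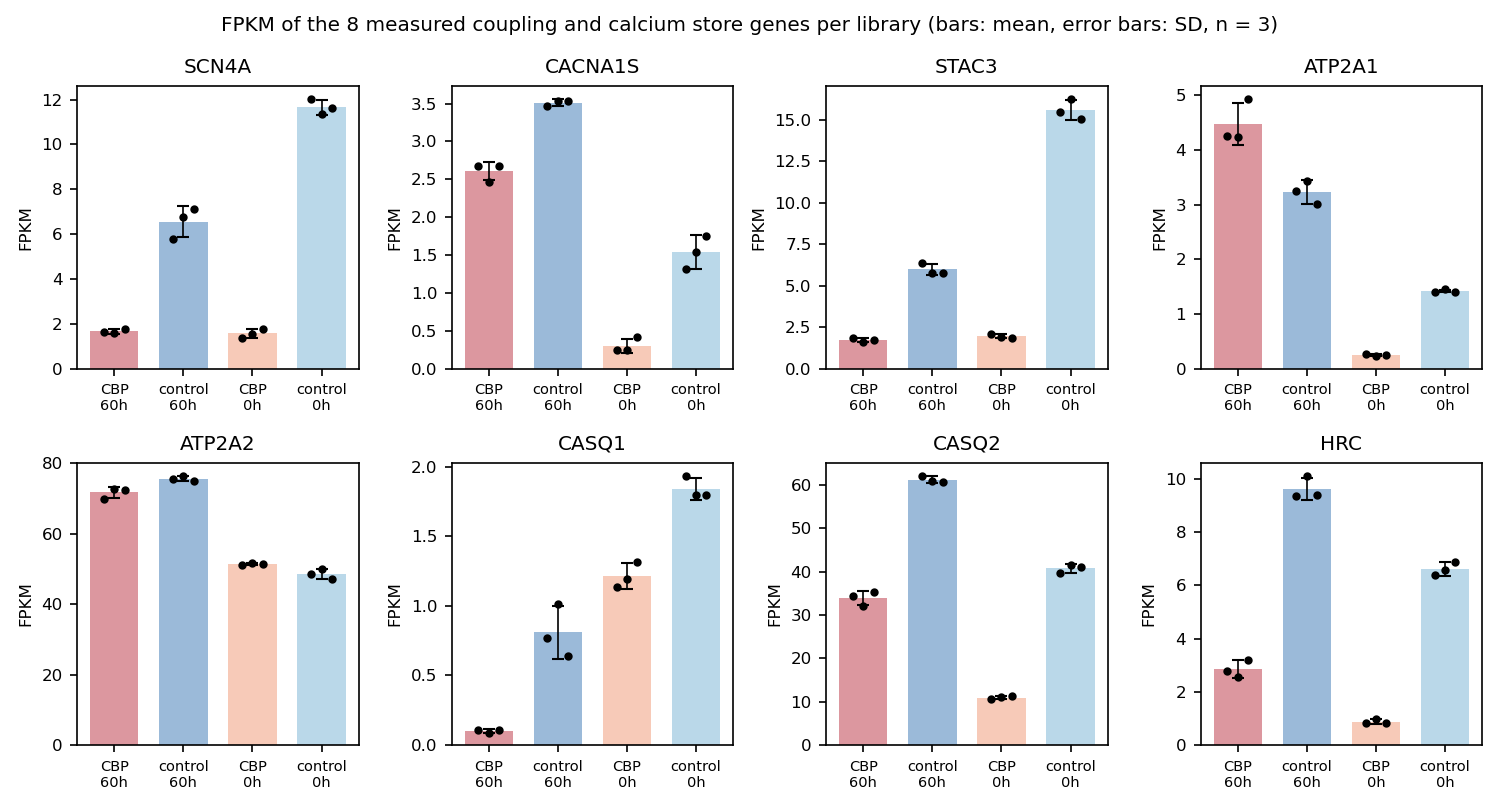
Levels in FPKM on a linear axis for the 8 measured genes, with a point per library, bars for group means and error bars for the SD of 3 libraries. SCN4A and STAC3 are low in CBP cells at both times (1.37 to 2.11 FPKM) and highest in controls at 0h, whereas CACNA1S, CASQ2, HRC and both pumps are higher at 60h than at 0h in either arm.

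The sodium channel gene SCN4A (ENSSSCG00000017282, chromosome 12, 15001356 to 15048092 in RefSeq's Sscrofa11.1 annotation) was low in CBP cells at both times. Its levels were 1.61, 1.59 and 1.77 FPKM in CBP cells at 60h, against 5.78, 6.76 and 7.14 FPKM in controls. At 0h they were 1.37, 1.56 and 1.76 FPKM in CBP cells, against 12.01, 11.3 and 11.6 FPKM in controls. Every CBP library lay below every control library of the same time, and the CBP libraries of both times overlapped. SCN4A fell 3.96-fold at 60h (log2 change -1.51, SE 0.073, limma adjusted p = 3.36e-09) and 7.45-fold at 0h (-2.31, SE 0.073, limma adjusted p = 2.18e-10). Of all genes tested, 2.46% had a lower log2 change at 60h and 0.395% at 0h. Between times, SCN4A fell 1.78-fold by 60h in control cells (log2 change -0.75, SE 0.073), and in CBP cells the difference was 0.05 (SE 0.073, limma adjusted p = 0.536).

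STAC3 (ENSSSCG00000029471, chromosome 5, 22549008 to 22556330), the adaptor that ties the calcium channel to the release machinery, was like SCN4A highest in controls at 0h and second highest in controls at 60h. It stood at 1.83, 1.62 and 1.69 FPKM in CBP cells at 60h, where controls had 6.36, 5.78 and 5.78 FPKM. In CBP cells at 0h it stood at 2.11, 1.88 and 1.86 FPKM, where controls had 15.5, 16.2 and 15.0 FPKM. The arms did not overlap at either time, and the control level was higher at 0h than at 60h. STAC3 was 3.49-fold lower in CBP cells than in controls at 60h (log2 change -1.36, SE 0.055, limma adjusted p = 6.47e-10) and 7.998-fold lower at 0h (-2.49, SE 0.055, limma adjusted p = 7.30e-12). Only 0.318% of all genes tested had a lower log2 change at 0h. In control cells it fell 2.61-fold by 60h (log2 change -1.25, SE 0.055). In CBP cells it was 1.14-fold lower at 60h than at 0h and did not pass (log2 change -0.12, SE 0.055, limma adjusted p = 0.0685), although it passed without CBP 60h replicate 1 (adjusted p = 0.043) and with a pseudocount of 0.1 (0.0396). Over the 12 libraries the Pearson correlation of STAC3 and SCN4A was 0.98 on the log2(FPKM + 1) scale, the highest of the 28 pairs among the 8 genes, and these libraries form 4 groups whose means set most of it.

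CACNA1S (ENSSSCG00000024784, chromosome 10, 23503701 to 23567797), which encodes the voltage sensor, went with time in another direction than STAC3. Its levels were 2.68, 2.47 and 2.68 FPKM in CBP cells at 60h, against 3.47, 3.54 and 3.53 FPKM in controls. In proliferation it had 0.246, 0.245 and 0.410 FPKM in CBP cells (28 to 41 reads a library), and 1.31, 1.54 and 1.76 FPKM in controls (156 to 208 reads). No groups overlapped, and their order ran from control at 60h through CBP at 60h and control at 0h to CBP at 0h. CACNA1S was 1.35-fold lower in CBP cells than in controls at 60h (log2 change -0.32, SE 0.075, limma adjusted p = 0.002) and 5.12-fold lower at 0h (-0.96, SE 0.075, limma adjusted p = 4.64e-07). By 60h it rose 8.69-fold in CBP cells (log2 change 1.47) and 2.29-fold in control cells (0.84). The pseudocount of 1 holds down the log2 change of a low gene, and with a pseudocount of 0.1 the change of CACNA1S was -2.05 at 0h, and 2.78 by 60h in CBP cells.

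The calcium pump genes differed in level and in response. ATP2A2 (ENSSSCG00000034386, chromosome 14, 31674659 to 31744981) was the most abundant of the 8 genes per length in each of the 4 groups. It had 70.0, 72.7 and 72.5 FPKM in CBP cells at 60h, against 75.6, 76.4 and 74.9 FPKM in controls. The 0h levels were 51.1, 51.8 and 51.5 FPKM in CBP cells, against 48.7, 50.1 and 47.3 FPKM in controls. The arms lay within 1.06-fold of each other at both times. At 60h ATP2A2 was 1.05-fold lower in CBP cells (log2 change -0.08, SE 0.026, limma adjusted p = 0.0214), a call lost without CBP 60h replicate 1 (adjusted p = 0.0916) or control 60h replicate 2 (0.0677), while median-of-ratios scaling gave -0.203. At 0h it was 1.06-fold higher in CBP cells (log2 change 0.08, SE 0.026, limma adjusted p = 0.0195). That call was lost without CBP 0h replicate 2 (0.0512), without control 0h replicate 3 (0.0874) and after scaling to TPM (0.22). Under median-of-ratios scaling its sign turned (log2 change -0.06, adjusted p = 0.115), so no direction is given for ATP2A2 at 0h. By 60h it rose 1.39-fold in CBP cells (log2 change 0.47, SE 0.026) and 1.55-fold in control cells (0.63, SE 0.026).

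ATP2A1 (ENSSSCG00000007805, chromosome 3, 18545064 to 18568312), the pump of fast fibres, was the 1 gene of the 8 that was higher in CBP cells than in controls at 60h. It had 4.26, 4.24 and 4.92 FPKM in CBP cells at 60h, against 3.25, 3.44 and 3.002 FPKM in controls. At 0h it had 0.275, 0.234 and 0.253 FPKM in CBP cells (17 to 21 reads a library), against 1.40, 1.45 and 1.41 FPKM in controls (111 to 112 reads). CBP libraries lay above all control libraries at 60h and below all of them at 0h. ATP2A1 was 1.38-fold higher in CBP cells than in controls at 60h (log2 change 0.37, SE 0.063, limma adjusted p = 0.00021) and 5.59-fold lower at 0h (-0.95, SE 0.063, limma adjusted p = 1.26e-07). By 60h it rose 17.6-fold in CBP cells (log2 change 2.12, SE 0.063) and 2.28-fold in control cells (0.81, SE 0.063). In CBP cells 99.2% of the genes tested had a lower change by 60h on the log2(FPKM + 1) scale. With a pseudocount of 0.1 the ATP2A1 change was -2.10 at 0h, and 3.69 by 60h in CBP cells. RefSeq's RABEP2, which shares 49 bases with the end of ATP2A1, was itself at 8.17 ± 0.396 FPKM in CBP cells and 4.64 ± 0.581 in controls at 60h, and at 8.29 ± 0.29 in CBP cells and 5.38 ± 0.18 in controls at 0h (SD, n = 3). With no strand setting stated, reads from that overlap cannot be told apart, and its part in ATP2A1 was not tested. The annotated span of ATP2A2 likewise shares 253 bases with ANAPC7.

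Because both pumps are given per length, their FPKM values can be summed within a library. ATP2A1 made up 5.74, 5.50 and 6.36% of this sum in CBP cells at 60h, against 4.13, 4.31 and 3.85% in controls. At 0h its share was 0.534, 0.4498 and 0.489% in CBP cells (17 to 21 ATP2A1 reads a library), against 2.80, 2.81 and 2.89% in controls. The share was thus higher in CBP cells at 60h, by 1.77 percentage points of the means, and lower at 0h, by a difference of -2.34 points, with no overlap between arms. Each difference had a two-sided exact permutation p of 0.1, the smallest that 3 against 3 libraries can give. The sum itself was 76.2 ± 1.72 FPKM in CBP cells and 78.9 ± 0.973 in controls at 60h, and 51.7 ± 0.294 in CBP cells and 50.1 ± 1.41 in controls at 0h (SD, n = 3).

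**Figure D2:**
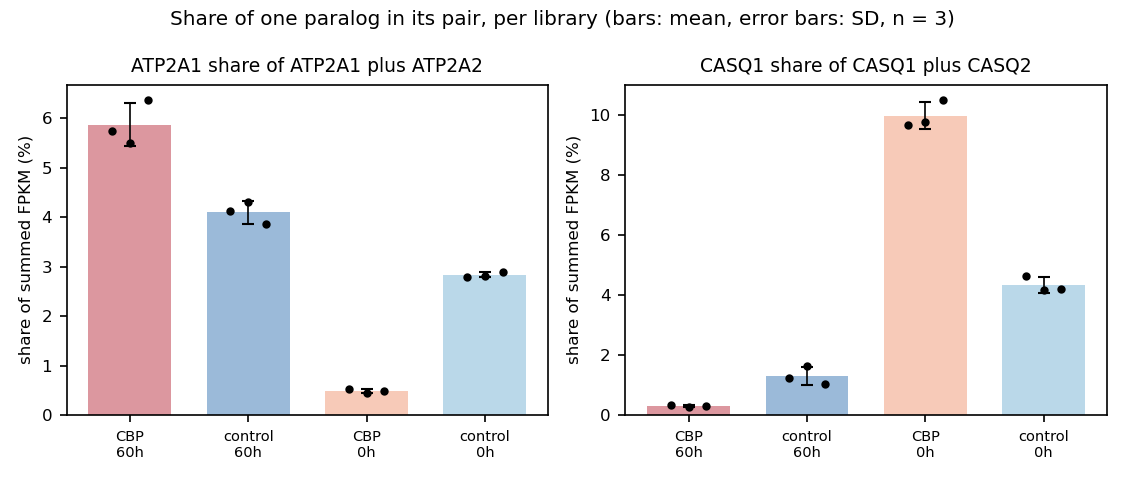
Share of ATP2A1 in the summed FPKM of both pumps, and of CASQ1 in the summed FPKM of both calsequestrins, in percent on axes from 0, with points for libraries, bars for means and error bars for the SD of 3 libraries. The ATP2A1 share is highest in CBP cells at 60h (5.87%) and the CASQ1 share is highest in CBP cells at 0h (9.96%).

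CASQ2 (ENSSSCG00000006745, chromosome 4, 104918204 to 104984019), the cardiac and slow muscle calsequestrin, was the main calsequestrin transcript in these cells. It had 34.4, 32.0 and 35.3 FPKM in CBP cells at 60h, against 62.1, 60.9 and 60.7 FPKM in controls. In proliferation, CASQ2 had 10.6, 11.03 and 11.2 FPKM in CBP cells, against 39.7, 41.5 and 41.0 FPKM in controls. CBP cells at 60h stood below controls at 0h, and no groups overlapped. CASQ2 was 1.81-fold lower in CBP cells than in controls at 60h (log2 change -0.83, SE 0.037, limma adjusted p = 1.43e-09) and 3.72-fold lower at 0h (-1.80, SE 0.037, limma adjusted p = 3.88e-12). By 60h it rose 3.10-fold in CBP cells (log2 change 1.55) and 1.503-fold in control cells (0.58).

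CASQ1 (ENSSSCG00000006390, chromosome 4, 90276752 to 90288990), the skeletal muscle calsequestrin, was low throughout and moved against CASQ2 with time. In CBP cells at 60h it had 0.110, 0.0861 and 0.107 FPKM, which rest on 4 to 5 reads a library, against 0.771, 1.01 and 0.643 FPKM in controls (29 to 45 reads). The 0h libraries had 1.13, 1.19 and 1.31 FPKM in CBP cells, against 1.93, 1.80 and 1.79 FPKM in controls. CASQ1 was highest in controls at 0h and lowest in CBP cells at 60h, with no overlap between groups. It was lower in CBP cells than in controls by 0.71 on the log2 scale at 60h (SE 0.078, limma adjusted p = 5.18e-06) and by 0.36 at 0h (SE 0.078, limma adjusted p = 0.00169). The ratio of means was 8.03-fold at 60h and 1.52-fold at 0h, and with a pseudocount of 0.1 the log2 change was -2.16 at 60h and -0.565 at 0h. By 60h it fell 12.03-fold in CBP cells (log2 change -1.01) and 2.27-fold in control cells (-0.66), with log2 changes of -2.71 and -1.11 at that lower pseudocount.

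The share of CASQ1 in the calsequestrin sum was 0.318, 0.268 and 0.301% in CBP cells at 60h, resting on 4 to 5 CASQ1 reads a library. In controls at 60h this share was 1.23, 1.64 and 1.05%, on 29 to 45 CASQ1 reads. At 0h it was 9.66, 9.75 and 10.5% in CBP cells, against 4.65, 4.15 and 4.19% in controls. CBP cells thus had the lower share at 60h and the higher share at 0h, with no overlap, and each exact permutation p was 0.1, the smallest possible here. The calsequestrin sum was 34.0 ± 1.71 FPKM in CBP cells and 62.0 ± 0.746 in controls at 60h, and 12.2 ± 0.412 in CBP cells and 42.6 ± 0.861 in controls at 0h (SD, n = 3).

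HRC (ENSSSCG00000003156, chromosome 6, 54337348 to 54341638), a calcium-binding protein of the store lumen, had the same order of groups as CASQ2. It had 2.79, 2.55 and 3.202 FPKM in CBP cells at 60h, against 9.37, 10.1 and 9.39 FPKM in controls. At 0h it had 0.812, 0.981 and 0.824 FPKM in CBP cells (33 to 45 reads a library), against 6.38, 6.59 and 6.89 FPKM in controls. Every CBP library was below every control library of either time. HRC was 3.38-fold lower in CBP cells than in controls at 60h (log2 change -1.47, SE 0.066, limma adjusted p = 1.63e-09) and 7.59-fold lower at 0h (-2.03, SE 0.066, limma adjusted p = 2.50e-10). It rose 3.27-fold by 60h in CBP cells (log2 change 1.04, or 1.6 with a pseudocount of 0.1) and 1.45-fold in control cells (0.48). The correlation of HRC with CASQ2 over the 12 libraries was 0.96.

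**Figure D3:**
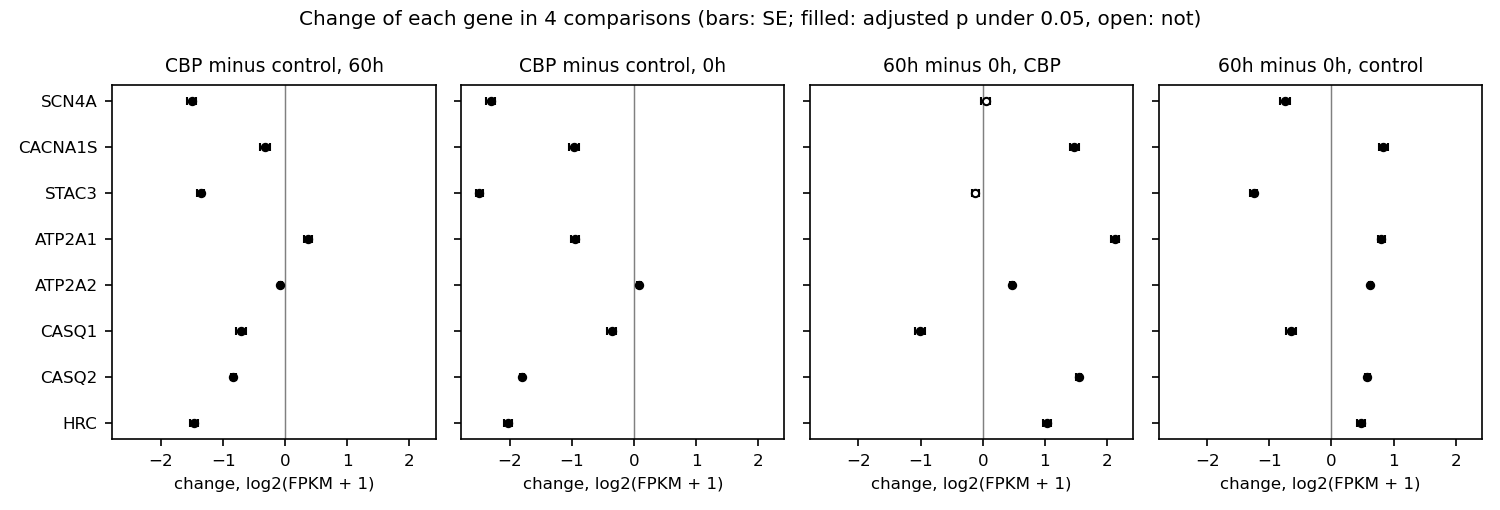
Change of each of the 8 genes on the log2(FPKM + 1) scale in 4 comparisons, with bars for the SE, filled points for an adjusted p under 0.05 and open points for SCN4A and STAC3 between times in CBP cells. ATP2A1 lies right of 0 for CBP minus control at 60h (0.37) and left of it at 0h (-0.95).

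Across time, 5 of the 8 genes rose and 1 fell in CBP cells by 60h, where 72.7% of all genes tested were called, 31.3% as rising and 41.5% as falling. In control cells 5 rose and 3 fell, beside 66.8% of all genes called, 28.8% rising and 38.0% falling. After scaling to TPM the all-gene shares were 39.2% rising and 32.6% falling in CBP cells, and 35.1% rising and 30.8% falling in control cells. CACNA1S, ATP2A1, ATP2A2, CASQ2 and HRC rose in both arms, and CASQ1 fell in both. These comparisons share the libraries of each arm with the comparisons between arms. The median change of the 8 genes was 0.75 in CBP cells and 0.53 in control cells, and over all genes it was -0.057 and -0.052.

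The change in CBP cells against controls at 60h differed from that at 0h for all 8 genes by the interaction term of the limma fit. In that comparison 50.9% of all genes tested were called. For 6 of the 8 the term was positive (24.3% of all genes) and for 2 it was negative (26.7%). ATP2A1 had the largest of the 8 (1.32, SE 0.089, limma adjusted p = 2.28e-07), and for it the changes at both times had opposite signs. STAC3 (1.13, SE 0.078), CASQ2 (0.97, SE 0.052), SCN4A (0.80, SE 0.103), CACNA1S (0.64, SE 0.106) and HRC (0.56, SE 0.093) were lower in CBP cells at both times, with the smaller log2 fall at 60h. CASQ1 had the larger fall at 60h (-0.35, SE 0.111, limma adjusted p = 0.0195). With a pseudocount of 0.1 the term was -1.60 for CASQ1, 2.56 for ATP2A1, 1.63 for CACNA1S and 1.07 for HRC. For ATP2A2 the term was -0.16 (SE 0.037, limma adjusted p = 0.00418).

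Beyond these genes, 58 others of calcium handling and membrane excitability were listed by role, 52 had a row and 45 were tested. Of the 45, 23 were lower and 16 higher in CBP cells at 60h, where 27.0% of all genes tested were lower and 44.7% higher. At 0h, 19 were lower and 12 higher, where the shares of all genes were 18.1% and 44.2%. Their median changes were -0.18 at 60h and -0.049 at 0h, against 0.10 and 0.12 over all genes. After median-of-ratios scaling the counts were 26 lower and 11 higher at 60h, and 26 lower and 9 higher at 0h, against 35.7% lower and 33.5% higher over all genes at 60h, and 26.9% lower and 25.4% higher at 0h. Partners of the channels and the junction were mostly lower too, with 7 of 8 lower and 1 higher at 60h, and 7 of 8 lower and none higher at 0h, as deposited and under both other scalings. CACNB1, the beta subunit of the skeletal calcium channel, was 2.44-fold lower at 0h (3.98 ± 0.494 FPKM in CBP cells and 9.73 ± 0.454 in controls), and JSRP1, a junctional protein of the reticulum, was 3.36-fold lower at 60h and 2.58-fold lower at 0h. ASPH, whose locus also encodes the junctional protein junctin, was the 1 partner that was higher at 60h. Of 5 genes of store-operated calcium entry, 3 were higher and 1 lower in CBP cells at 60h, and 2 were higher and none lower at 0h. With 5 genes this is near the 44.7% and 44.2% of all genes that were higher. After median-of-ratios scaling 3 were higher at 60h and 1 at 0h, where 33.5% and 25.4% of all genes were higher.

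Among the named genes of the lists, SRL, a calcium-binding glycoprotein of the reticulum, had 43.1 ± 4.04 FPKM in CBP cells and 55.5 ± 0.747 in controls at 60h. At 0h it had 3.51 ± 0.274 in CBP cells and 39.2 ± 0.464 in controls (SD, n = 3), an 11.2-fold fall (log2 change -3.16, SE 0.06, limma adjusted p = 2.12e-12). CAV3, the muscle caveolin, was 7.93-fold lower at 0h (1.02 ± 0.187 FPKM in CBP cells and 8.08 ± 0.661 in controls), and the kinase subunit CAMK2A was 2.65-fold lower at 60h and 4.61-fold lower at 0h. The release channel RYR3, a relative of RYR1 found in developing muscle, had 3.41 ± 0.286 FPKM in CBP cells and 7.90 ± 0.378 in controls at 60h, and 5.46 ± 0.384 in CBP cells and 12.1 ± 0.807 in controls at 0h, where it was 2.22-fold lower (log2 change -1.02, SE 0.065). The other 3 tested release channels were higher in CBP cells at 0h, where 44.2% of all genes tested were higher. ITPR1 was 1.31-fold, ITPR2 1.72-fold and ITPR3 1.95-fold higher. At 60h ITPR1 was 1.43-fold lower, and ITPR2 and ITPR3 were 1.21-fold and 1.09-fold higher. After median-of-ratios scaling 0 of the release channels were higher at 60h.

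At 60h the named changes included small regulators of the pump. SLN encodes sarcolipin, a peptide that inhibits the calcium pumps, and had 1.76 ± 0.284 FPKM in CBP cells and 10.8 ± 1.02 in controls, a 6.14-fold fall (log2 change -2.10, SE 0.089, limma adjusted p = 1.02e-09). S100A1, a calcium sensor that binds the release channel and the pump, had 8.36 ± 1.11 FPKM in CBP cells and 97.2 ± 1.97 in controls, an 11.6-fold fall. RCAN1, a regulator of the calcium-dependent phosphatase calcineurin, was 3.001-fold lower, and the plasma membrane calcium pump ATP2B4 was 2.23-fold lower. In control cells, S100A1 rose 9.23-fold and SLN 24.8-fold by 60h (SLN had 0.435 ± 0.11 FPKM at 0h), whereas JSRP1, the release channel ITPR3 and the junctophilin JPH1 fell 3.58-fold, 2.75-fold and 2.67-fold. In CBP cells, SRL rose 12.3-fold, CAV3 12.4-fold and CAMK2A 2.91-fold by 60h, and ITPR3, JSRP1 and the sodium pump subunit ATP1B1 fell 4.89-fold, 4.66-fold and 2.99-fold. CAV3, SRL and CAMK2A rose 2.38-fold, 1.42-fold and 1.67-fold in control cells as well, and ATP1B1 fell 1.58-fold there. Likewise SLN rose 6.61-fold and JPH1 fell 1.79-fold in CBP cells. S100A1 was 1.15-fold higher at 60h in CBP cells and was not called (limma adjusted p = 0.078). The interaction term was -2.92 for S100A1, 2.80 for SRL, -1.92 for SLN, 1.601 for CAV3, 1.18 for the sodium-calcium exchanger SLC8A1 and -1.12 for ATP2B4, each called.

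**Figure D4:**
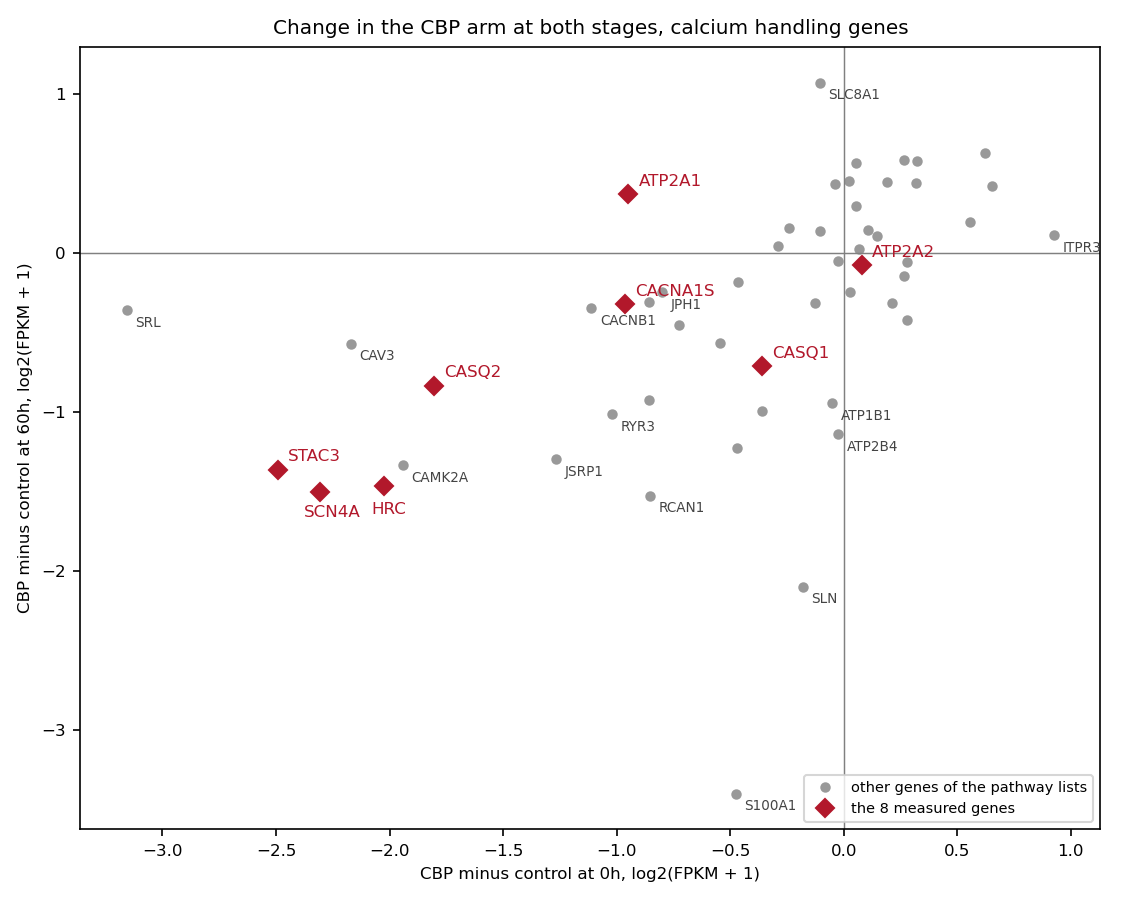
Change in CBP cells minus controls on the log2(FPKM + 1) scale, at 0h on the x axis and at 60h on the y axis, for the 8 measured genes (red diamonds) and the 45 other tested genes of the lists (grey points, named by the naming rule). ATP2A1 stands at -0.95 and 0.37, STAC3 at -2.49 and -1.36, SRL at -3.16 on the x axis and S100A1 at -3.40 on the y axis.

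The genes whose levels over the 12 libraries were most like each of the 8 were sought among 7867 tested genes with a symbol and a mean of 5 FPKM or more in some group, by Pearson correlation of log2(FPKM + 1). For CASQ2 the nearest were NEB (0.998), which encodes the thin filament protein nebulin, and MYOZ2 (0.994), a Z-disc protein. ATP2A1 was nearest to the perinatal myosin heavy chain MYH8 (0.995), which had 118 FPKM in CBP cells and 49.9 in controls at 60h, and 2.92 in CBP cells and 14.6 in controls at 0h, and to SVIL (0.995). SCN4A was nearest to MUSK (0.995), the receptor kinase of the neuromuscular junction, and AZIN1 (0.994). For CACNA1S they were MYBPH (0.995), a myosin-binding protein, and WWTR1 (0.994), for STAC3 the glycogen synthase GYS1 (0.994) and DLGAP4 (0.993), and for HRC PTPN21 (0.997) and FILIP1 (0.996). For CASQ1 they were ALPK3 (0.989) and PYGO1 (0.987), and for ATP2A2 UNC5B (0.996) and ENG (0.996). All of these values come from 12 libraries in 4 groups, whose means set most of each value, and the order of groups need not be the same: MUSK and AZIN1 averaged slightly less in CBP cells at 60h than at 0h, and SCN4A slightly more.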

How the data were processed

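The authors deposited 1 table of FPKM values for 12 libraries, not pooled. Trimmomatic, featureCounts and the build Sscrofa11.1 are named in the submitters' processing notes. No version, aligner, annotation release, strand setting or treatment of multiply mapped reads is given in the sources used here. Symbols are those of the table (16801 genes) or, by identifier, of the reference table (687, RCAN1 among them), and positions are those of RefSeq for the symbol.

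The values step by whole reads, and library totals and reads were recovered from these steps with a tolerance of 0.001 for 22521 of 22521 expressed genes. Values of log2(FPKM + 1) for 11636 genes at 1 FPKM or more in at least 3 libraries entered a limma model (version 3.58.1, R 4.3.3) of 4 group means with a trended spread, in 5 comparisons, two-sided, Benjamini-Hochberg adjusted over all genes. The fit was also run on simulated data in which a small set of genes changed, in CBP cells at 60h only. Here 50.9% to 72.7% of all genes tested were called, so that run does not vouch for calls under so wide a shift. Folds are ratios of mean FPKM.

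Libraries of 1 group differed by 2.21 to 4.89 in chi-square per gene, above counting noise, so none was counted as a repeat. The 8 genes and all lists were chosen with earlier results of these data known. By rule, up to 6 called list genes per comparison with the largest change and a mean of 2 FPKM or more were named. ASPH, ITPR1, ITPR2 and the ITPR3 changes between arms were named after their values were seen.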

Additional observations from a re-analysis of the deposited data

Results flagged for a closer look

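The change in CBP cells against controls at 60h and that at 0h differed past the test's threshold for each of the 8 genes (interaction term of the limma fit, log2(FPKM + 1) scale). The difference was 1.32 for ATP2A1, 1.13 for STAC3, 0.97 for CASQ2, 0.80 for SCN4A, 0.64 for CACNA1S, 0.56 for HRC, -0.16 for ATP2A2 and -0.35 for CASQ1. For CASQ1, ATP2A1, CACNA1S and HRC, levels in CBP cells rested on few reads in 1 of the times. These were 4 to 5 reads a library at 60h for CASQ1. At 0h they were 17 to 21 for ATP2A1, 28 to 41 for CACNA1S and 33 to 45 for HRC. Of all genes tested, 50.9% passed in the same comparison.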

How the results depend on the processing

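Over 9 alternatives and 12 fits that each left out 1 library, 808 of 817 values of the 8 genes kept their direction and their side of the threshold. The exceptions were in ATP2A2, STAC3 and SCN4A, and the cause was not tested. The log2 change cannot move when the library left out is outside the comparison. Nor can it move under other filters, a replicate block or a fit of only the groups compared. The 808 thus include many values whose direction was fixed, and only their side of the threshold could change. The ATP2A2 change at 0h was -0.0564 under median-of-ratios scaling, and the uncalled SCN4A change between times in CBP cells was -0.0025 without CBP 0h replicate 1 and up to 0.107 over the fits that left out a library. The count of the 8 genes higher in CBP cells at 0h was 0 under TPM and median-of-ratios scaling, and 0 to 1 when a library was left out. The count lower in CBP cells at 60h was 6 to 7 when a library was left out. The count falling by 60h in CBP cells was 2 with a pseudocount of 0.1 and 1 to 2 when a library was left out. A filter of 5 FPKM kept only 5 of the 8 genes, with 4 lower in CBP cells at 0h, 0 higher at 60h, 3 rising by 60h in each arm, 0 falling in CBP cells and 1 negative interaction. Median-of-ratios scaling gave 2957 genes higher in CBP cells at 0h in place of 5148. An alternative added after seeing the data, limma's voom on the recovered reads, changed no call of the 8 genes. Sizes moved more than calls for low genes: at 0h the change of CACNA1S was -2.39 and that of ATP2A1 -2.45 with voom, against -0.96 and -0.95 on log2(FPKM + 1), and at 60h that of CASQ1 was -2.86 against -0.71. The replicate block, fitted on the numbers in the titles, changed no call of the 8 genes either. With it, 7 of 8 were lower in CBP cells at both times, as in the fit without it. Same-numbered libraries of the groups compared correlated at -0.0935 to 0.082 in their deviations, and those with unlike numbers at -0.0973 to 0.117. Such correlations cannot show whether same-numbered libraries share a culture, which the labels do not state. Depth limits CASQ1 at 60h and ATP2A1, CACNA1S and HRC at 0h in CBP cells, which rest on few reads.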

Other observations

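Several other genes of the same machinery were low in these cells and were chosen for mention after their values were seen. TRDN, which encodes the junctional protein triadin, stood at 0.137 ± 0.0423 FPKM in CBP cells and 1.67 ± 0.215 in controls at 60h, and at 0.0323 ± 0.0126 in CBP cells and 0.433 ± 0.0828 in controls at 0h (SD, n = 3), and was lower in CBP cells at both times (limma adjusted p = 4.75e-08 at 60h and 0.000295 at 0h). CACNG1, the gamma subunit of the skeletal calcium channel, was not tested and stood at 0.0431 ± 0.00636 FPKM in CBP cells and 0.781 ± 0.168 in controls at 60h, and at 0.0102 ± 0.0102 in CBP cells and 0.218 ± 0.0154 in controls at 0h. RYR2, the cardiac release channel, was not tested either and stood at 0.261 ± 0.0359 FPKM in CBP cells and 0.126 ± 0.0114 in controls at 60h, and at 0.0313 ± 0.0163 in CBP cells and 0.0461 ± 0.00983 in controls at 0h. PVALB, the calcium buffer of fast fibres, was listed at 0 in all 12 libraries.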
